A study of Mus musculus with 4 samples.

Results

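The data described here are the CpG methylation levels of 3 genes of the mouse, Rims2, Btbd3 and Adam2, in whole-genome bisulfite sequencing (WGBS) of embryonic brain. Bisulfite turns unmethylated cytosine into uracil and leaves both 5-methylcytosine and 5-hydroxymethylcytosine, the first product of TET enzymes. The methylation level of a CpG is the percentage of reads that keep a cytosine there, and it does not tell these modified bases apart. The 3 genes were selected on measured values. Among differentially methylated regions (DMRs) outside chromosome 10 that were called higher in Tet1 knockout (KO) than in wild type (WT) at both maternal diets, they held the regions with the largest KO gain in methylation, averaged over both diets, among 445 regions that held 5 or more scored CpGs and averaged 10 or more reads per CpG in every library. The order depends on these limits. Without the coverage minimum, Rims2, Adam2 and Btbd3 ranked 11, 17 and 24 of 1336 regions, and over the union of the calls of both diets Btbd3 ranked 73 of 509. The genes were 3 of 20807 protein-coding autosomal genes. Their windows, the regions called at 30 ppm, were 3 of 1427 shared regions with at least 5 CpGs scored, chromosome 10 included. The KO minus WT differences inside the windows are therefore given as descriptions without a test, and the question followed is how far from each window the difference reached. Averaged over the diets it was 59.3 percentage points (points from here on) at Rims2, 57.0 at Adam2 and 55.5 at Btbd3. The region ranked next, in Slc23a4, had 54.0 points and was not included.

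The study provided 4 WGBS libraries of E11.5 brain, each from 1 male embryo of the 129S6.cg Tet1<tm1Koh> strain. Heterozygous dams were fed folic acid (FA) at 30 ppm (excess FA) or 3 ppm (control FA), and 1 KO and 1 WT embryo were sequenced for each diet. Both diets also held the antibiotic succinyl sulfathiazole, so all 4 libraries share this treatment. The paper links it to gross malformations in this strain. The allele, made in C57BL/6 and backcrossed to 129S6, carries a cassette at the start codon of the full-length Tet1 protein in every cell, and the WT embryos carry none. Each library comes from 1 embryo and has its own embryo number in the titles, so genotype cannot be told apart from embryo or litter within a diet, and no value has a standard deviation. By these embryo numbers, the study's sample list gives the phenotype as normal for both WT embryos and as a neural tube defect for both KO embryos, so genotype cannot be told apart from the defect at either diet. The dissection ran from forebrain to hindbrain, and CpG reads of such bulk tissue do not tell cell types apart. Cell identity and loss of Tet1 rest on the labels.

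Methylation of CpGs is written by DNA methyltransferases, and TET enzymes such as TET1 oxidise 5-methylcytosine, which starts its removal. In mammalian tissues most CpGs are methylated, while CpG-rich start sites and many enhancers stay low. Rims2 encodes a scaffold protein of the presynaptic active zone that links synaptic vesicles and calcium channels. Btbd3 encodes a BTB/POZ domain protein known for orienting the dendrites of cortical neurons towards active axons. Adam2 encodes fertilin beta, a sperm surface protein needed for fertilisation, and is known as a gene of the male germ line.

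The windows lay inside the genes and away from the outermost start site of each (GRCm38 coordinates, counted from 1). The Rims2 window, chr15:39660076-39660466 (gene ENSMUSG00000037386.16, plus strand, 39198261 to 39684372), was intronic. It began 510 bp downstream of an internal start site at 39659566, whose first exon ended at 39659926, and 461815 bp from the outermost start site. The Btbd3 window, chr2:138278452-138278720 (ENSMUSG00000062098.11, plus strand, 138256565 to 138589292), held the internal start site of a coding transcript of Btbd3 at 138278493, that is 41 bp after the window began and 21887 bp from the outermost start site. The Adam2 window, chr14:66044705-66045142 (ENSMUSG00000022039.6, minus strand, 66027329 to 66077733), was intronic for Adam2, 32591 bp from its only group of start sites. Its right end overlapped Gm10233, a processed pseudogene on the opposite strand. Gm10233 was also the only other annotated gene within 10 kb of any of the 3 windows.

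Reference sequence (GRCm38.p6, RefSeq, forward strand, 5′ to 3′) is given for a stretch at each window, with the CpGs in capitals, since these are the bases whose methylation was read. For Rims2 it is chr15:39660204-39660466, the bases called at both diets, with 9 CpGs of which 7 were scored. The last base is the C of one more scored CpG whose G falls outside. For Btbd3 it is chr2:138278293-138278492, the 200 bases before the internal start site, with 2 CpGs of which 1, the first of the window, was scored. For Adam2 it is chr14:66044791-66045083, which runs into the pseudogene and shows the change from few to many CpGs, 18 in all with 15 scored.
Rims2: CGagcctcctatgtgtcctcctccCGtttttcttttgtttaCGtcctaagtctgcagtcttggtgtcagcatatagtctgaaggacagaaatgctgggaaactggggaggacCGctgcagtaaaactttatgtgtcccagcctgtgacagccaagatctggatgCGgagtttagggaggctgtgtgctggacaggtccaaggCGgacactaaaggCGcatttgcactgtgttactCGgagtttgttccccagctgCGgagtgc
Btbd3: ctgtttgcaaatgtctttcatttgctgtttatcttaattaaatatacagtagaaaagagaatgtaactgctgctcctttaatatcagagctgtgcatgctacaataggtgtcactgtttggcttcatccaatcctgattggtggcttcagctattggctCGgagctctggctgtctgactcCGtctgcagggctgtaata
Adam2: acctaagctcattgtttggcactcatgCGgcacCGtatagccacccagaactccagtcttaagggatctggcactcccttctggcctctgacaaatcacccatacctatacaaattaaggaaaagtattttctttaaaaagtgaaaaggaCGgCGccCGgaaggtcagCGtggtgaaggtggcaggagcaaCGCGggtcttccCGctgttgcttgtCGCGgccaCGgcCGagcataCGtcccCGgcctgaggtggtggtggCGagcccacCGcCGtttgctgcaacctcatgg

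The sequences show different settings. The Rims2 stretch has CpGs scattered singly, the Btbd3 stretch before the start site has almost none, and the Adam2 stretch has 1 dense group that begins at the pseudogene as RefSeq places it. The ratio of observed to expected CpGs was 0.441 in the Rims2 window, 0.686 in the Btbd3 window and 0.695 in the Adam2 window, with a GC content of 51.4%, 53.9% and 53.9%. Soft-masked repeats covered 5.37%, 9.67% and 31.3% of them. The windows shared neither length, at 391, 269 and 438 bp, nor placement relative to the start of the gene.

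Mean coverage of autosomal CpGs was 13.2 to 21.2 reads, deepest in KO at 3 ppm, and 14907672 autosomal CpGs had at least 5 reads in all 4 libraries; only such CpGs were scored. Their mean level was 81.4 to 83.5%. Mitochondrial CpGs, which serve as a background of incomplete conversion, were at 0.914 to 0.938%. Each read counts once for every CpG on it, so the reads below are not independent and the intervals, which cover counting error only, can be too narrow.

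In the Rims2 window, 8 of 12 reference CpGs were scored. The level was 75.5% in KO at 30 ppm (95% Wilson interval 66.1 to 83.0, 98 reads) and 68.5% in KO at 3 ppm (61.0 to 75.2, 162 reads). It was 14.4% in WT at 30 ppm (9.41 to 21.4, 132 reads) and 10.99% in WT at 3 ppm (6.08 to 19.1, 91 reads). Both KO libraries were high and both WT libraries low, and KO minus WT was 61.1 points (49.4 to 70.1) at 30 ppm and 57.5 (46.5 to 65.8) at 3 ppm. Single CpGs ran from 53.3 to 93.8% in KO and from 10 to 20% in WT at 30 ppm, so the CpGs of the libraries did not overlap. At 3 ppm they ran from 25 to 91.3% in KO and from 0 to 22.2% in WT.

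In the Btbd3 window, 12 of 14 reference CpGs were scored. The level was 76.6% in KO at 30 ppm (68.4 to 83.2, 124 reads), 70.6% in KO at 3 ppm (64.5 to 76.1, 235 reads), 21.9% in WT at 30 ppm (16.3 to 28.7, 169 reads) and 14.4% in WT at 3 ppm (10.1 to 19.97, 195 reads). KO minus WT was 54.7 points (44.1 to 63.3) at 30 ppm and 56.3 (48.0 to 63.2) at 3 ppm. The WT CpGs were not uniform. Their median was 9.09% at 30 ppm and 6.25% at 3 ppm, but the highest, near the right end of the window, reached 70.0% and 50.0%, and the KO CpGs ran from 60.0 to 100% and from 47.6 to 93.3%.

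In the Adam2 window, 16 of 23 reference CpGs were scored. The level was 84.8% in KO at 30 ppm (79.5 to 88.9, 223 reads), 82.7% in KO at 3 ppm (77.8 to 86.6, 283 reads), 21.7% in WT at 30 ppm (16.9 to 27.4, 235 reads) and 31.7% in WT at 3 ppm (25.2 to 39.1, 167 reads). KO minus WT was 63.1 points (55.3 to 69.4) at 30 ppm and 50.9 (42.1 to 58.6) at 3 ppm. With a minimum of 10 reads only 7 CpGs remained and the value at 30 ppm was 51.9 points. In all, 36 of the 36 scored CpGs of the windows were higher in both KO libraries than in both WT libraries, which the choice of the windows favoured. Of all scored autosomal CpGs, 16.9% had that order.

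**Figure D1:**
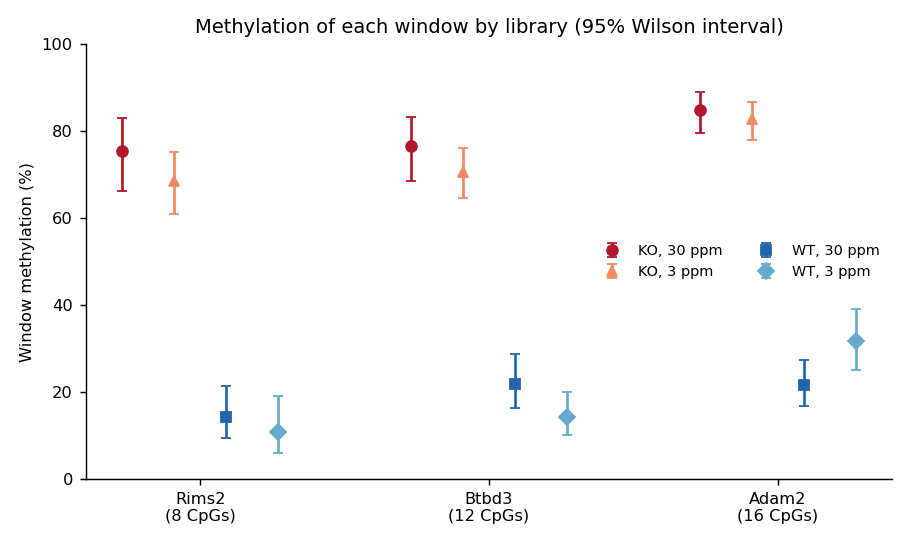
Methylation level (%, y axis) of the Rims2, Btbd3 and Adam2 windows in each of the 4 libraries, as summed methylated reads over all reads, with 95% Wilson intervals that cover counting error. The KO libraries lie at 68.5 to 84.8% and the WT libraries at 10.99 to 31.7% in all 3 windows.

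The windows were low places in methylated genes, and in KO they approached the level of the gene around them. The level of the gene body, outside the window and 1 kb around each start site, was 78.3 to 79.2% in KO at Rims2, 87.6 to 88.2% at Btbd3 and 89.0 to 90.1% at Adam2. It was 77.8% in both WT libraries at Rims2, 86.8 and 87.6% at Btbd3 and 88.7 and 89.2% at Adam2. KO minus WT over the gene body was 1.32 points at 30 ppm and 0.523 at 3 ppm at Rims2 (1902 CpGs), 1.38 and 0.0138 at Btbd3 (1965 CpGs) and 1.33 and -0.116 at Adam2 (422 CpGs). The median over 18027 genes was 1.77 and 0.622 points, so all 6 values of the 3 genes were below it, with the windows taken out of these 3 genes alone. With windows and start sites kept, the values were 1.53 and 0.795 points at Rims2, 1.99 and 0.756 at Btbd3 and 3.62 and 1.07 at Adam2. The median over 19528 whole genes was then 2.00 and 0.963 points, and Adam2 was above it at both diets. Outside the windows, no gene body differed by as much as 2 points.

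The reach of the gain was measured by walking outward from each window edge over scored CpGs. The walk went on while a CpG and the next 4 CpGs farther out had a mean KO minus WT of at least 10 points, and the reach is the distance to the last CpG passed. Reach is given as a description, since it uses the contrast that chose the windows. The 3 loci gave different results under this measure, and scored CpGs were missing next to the windows of Rims2 and Adam2.

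At Rims2 the reach was 0 bp on both sides at both diets. On the left, towards the internal start site, the nearest scored CpG was 307 bp away. The 8 scored CpGs 250 to 500 bp left of the window were at 5.26% in KO at 30 ppm (57 reads), and had no methylated read in WT at 30 ppm (0 of 43, which allows up to 6.98%), in KO at 3 ppm (0 of 70, up to 4.29%) or in WT at 3 ppm (0 of 90, up to 3.33%). These upper limits are 3 divided by the number of reads and are not Wilson intervals. All 4 libraries were thus low around the first exon of the internal start site, and the window next to it was low in WT only.

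The 307 bp between the Rims2 window and that CpG held 10 reference CpGs, none of them scored. Without a minimum of reads, 6 were listed in all 4 libraries. They were at 17.1% in KO at 30 ppm (8.10 to 32.7, 35 reads), 14.0% in KO at 3 ppm (6.56 to 27.3, 43 reads), 0% in WT at 30 ppm (0 to 13.8, 24 reads) and 4.44% in WT at 3 ppm (1.23 to 14.8, 45 reads). KO minus WT in the gap was thus 17.1 points (0.647 to 32.7) at 30 ppm and 9.51 (-3.24 to 23.2) at 3 ppm, below the intervals of the window at both diets, and a gain was not resolved at 3 ppm. With these CpGs the reach was 252 bp at 30 ppm and 135 bp at both diets.

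On the right of the Rims2 window the reference had no CpG for 704 bp. The CpG there was at 100% in both KO libraries, 96.0% in WT at 30 ppm and 95.2% in WT at 3 ppm. From 1 to 2 kb on the left the levels were 88.1 to 89.2% in all 4 libraries, and on the right 81.7 to 89.7%. The difference there was 0.753 to 6.98 points. The Rims2 gain therefore lay in the step between an unmethylated first exon and a methylated intron, with an end on the left that lies in the 459 bp between the first scored CpG of the window, 152 bp inside it, and the nearest one outside, and an end on the right that no CpG resolves within 704 bp.

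At Btbd3 the gain ran on well beyond the window, which is the call at 30 ppm. The call at 3 ppm ran to 138279351, so part of the reach on the right lay within it. The reach was 1191 bp to the left and 1291 bp to the right at 30 ppm, and 926 bp and 1291 bp at 3 ppm. At both diets together it was 2217 bp outside the window, 34 CpGs, and 2486 bp with the window. The nearest scored CpGs were 351 bp left and 92 bp right of it, and no reference CpG lay in these gaps.

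Left of the Btbd3 window, in the sequence before the internal start site, 3 CpGs 250 to 500 bp away were at 57.9% (KO) and 20.5% (WT) under excess FA and at 54.4% and 18.97% under control FA. From 500 to 1000 bp left, 5 CpGs were at 70.8% and 53.7%, and at 71.9% and 58.5%. Between 1 and 2 kb left, KO minus WT was 11.8 points at 30 ppm and -0.187 at 3 ppm. KO was there at 94.1% and 92.8%, and WT at 82.2% and 93.0%, so it was mainly the WT libraries that differed. From 2 to 5 kb left, KO minus WT was 0.912 and 0.557 points. The reads of the 1 to 2 kb bin, 118 to 166 a library, rest on 8 CpGs.

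Right of the Btbd3 window, within the transcribed part, KO exceeded WT in each bin up to 2 kb at both diets. The difference was 24.1 and 20.9 points within 250 bp, 19 and 35.9 points from 250 to 500 bp, 43.7 and 40.6 points from 500 to 1000 bp, and 17.5 and 20.1 points from 1 to 2 kb, at 30 and 3 ppm. From 500 to 1000 bp, 6 CpGs were at 76.7% in KO against 33.0% in WT under excess FA and at 84.3% and 43.7% under control FA. WT methylation thus dipped again there, and KO was higher in that dip as in the window. From 2 to 5 kb right, KO minus WT was -2.27 and -0.358 points, at 91.7 to 94.96% in all 4 libraries.

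The walk at Btbd3 stopped at 1291 bp although KO was higher at part of the CpGs farther right. Of the 18 CpGs beyond that point and up to 2 kb right, 11 were higher in both KO libraries than in both WT libraries. Of all scored autosomal CpGs, 16.9% had that order. The stretch was set by where the walk stopped, so the count is a description. The measure was also sensitive to its settings. A threshold of 20 points gave 351 bp at 30 ppm and 1423 bp at 3 ppm, and a mean of 3 CpGs gave 591 bp and 1815 bp. The reach shared by both diets was then 351 and 591 bp, since KO and WT were close at a few CpGs within the gain.

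At Adam2 the reach was 0 bp at 30 ppm. On the left, 4 CpGs within 250 bp of the window were at 92.9% (KO) and 89.4% (WT) under excess FA, and at 96.2% and 87.3% under control FA. The nearest was 84 bp away, so the left edge was sharp. From 500 to 1000 bp left, KO minus WT was -12.6 and -3.27 points, with 59 reads in KO at 30 ppm.

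Right of the Adam2 window the next scored CpG was 993 bp away, and none of the 18 reference CpGs between was listed in all 4 libraries. That CpG was at 80.0% in KO against 75.0% in WT under excess FA (10 and 16 reads) and at 89.5% and 56.2% under control FA (19 and 16 reads). It gave a reach of 993 bp at 3 ppm, which rests on 1 CpG beyond the gap, and 0 bp with a minimum of 10 reads. From 1 to 2 kb right the levels were 88.3 to 89.7% in all 4 libraries. The last scored CpG of the window lay 109 bp inside it, so the right end of the Adam2 gain was not measured within 1102 bp.

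**Figure D2:**
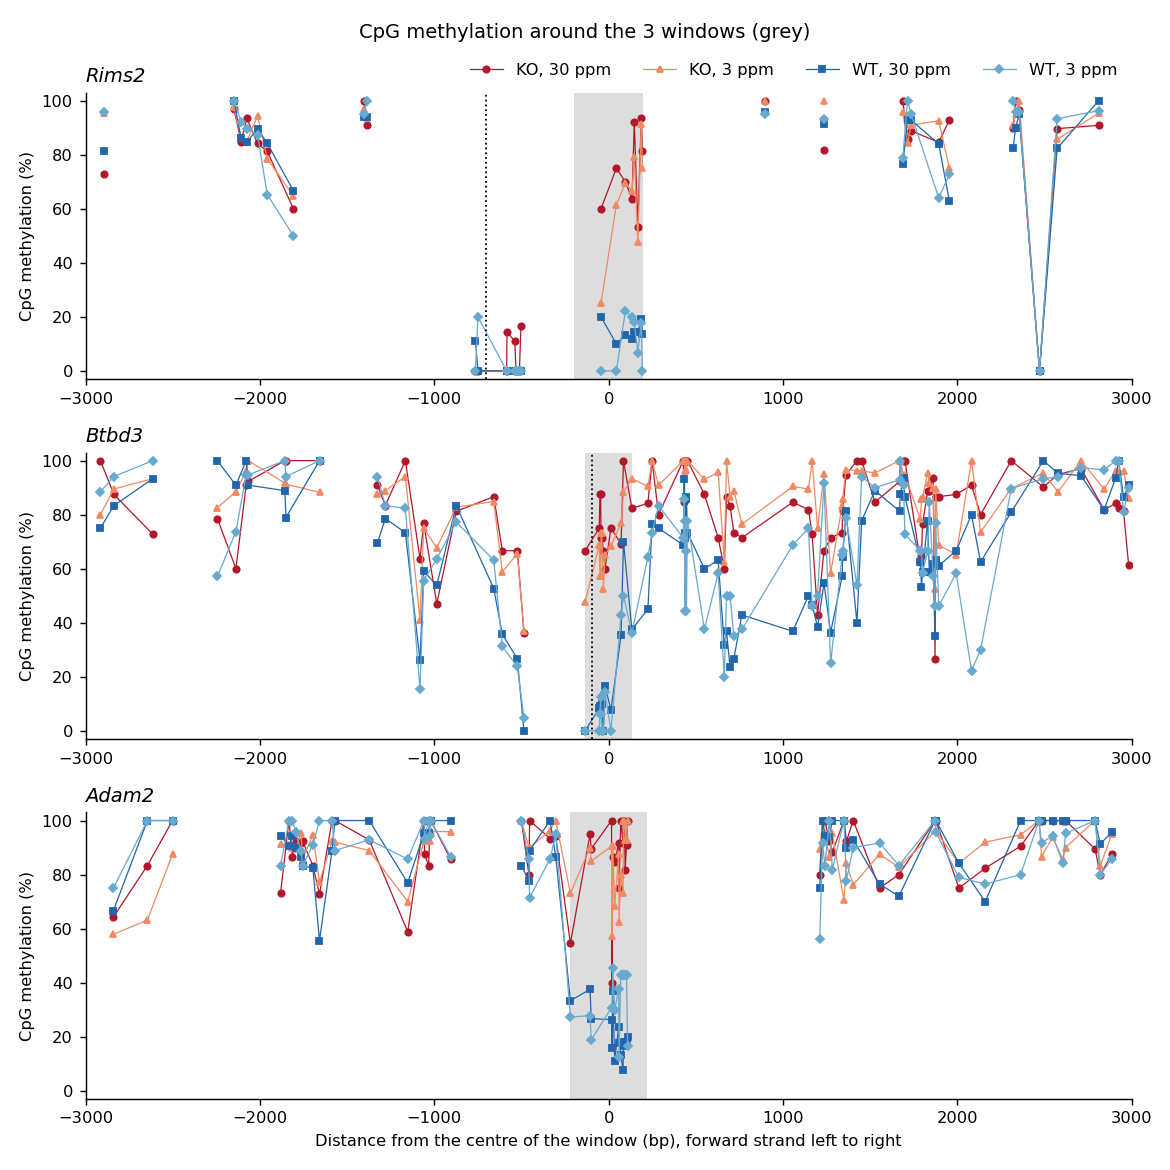
Methylation (%, y axis) of each scored CpG near the centre of the Rims2, Btbd3 and Adam2 windows (x axis, bp) in the 4 libraries. Grey marks the window, dotted lines the internal start sites, and lines are broken where scored CpGs are far apart. KO exceeds WT within the window at Rims2 and Adam2, and on both sides of it at Btbd3.

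The unscored gap of Adam2 lay almost wholly in the pseudogene as RefSeq places it. RefSeq places Gm10233 at chr14:66044941-66046083, and GENCODE at 66045080 to 66045707. It was 99.8% identical over 1138 bp to a transcript of Timm23, which encodes a subunit of the mitochondrial inner membrane translocase, and 99.9% identical over 1142 bp to a copy on chromosome 10, Gm10273. Of the 38 reference CpGs of the RefSeq pseudogene, 14 were listed in all 4 libraries and 13 were scored. All 13 lay in the window. In the shorter GENCODE placement 0 CpGs were scored, and all 16 scored CpGs of the window lay outside it.

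The 3 window CpGs before the pseudogene, as RefSeq places it, were at 78.7% (KO) and 32.6% (WT) under excess FA (61 and 43 reads) and at 81.8% and 25% under control FA (66 and 56 reads). The 13 CpGs within it were at 87.0% and 19.3% at 30 ppm and at 82.9% and 35.1% at 3 ppm. KO minus WT was 46.1 and 56.8 points before the pseudogene and 67.8 and 47.8 points within it. All these CpGs entered the choice of the window, so the values of both parts are given as a description.

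The whole Adam2 window had 4 other matches of at least 50 bp in the genome, the best of 96.5% identity over 229 bp at Gm10273, and the Rims2 and Btbd3 windows had none. Reads of near-identical copies can be placed at the wrong one, and their part in the values of the 13 CpGs was not tested. Gm10273 lies on chromosome 10, which the choice of the genes left out. Whether misplaced reads differ in number between KO and WT was not tested either. As a measure of the copies, the promoter of Timm23 was at 8.97 to 13.1% and that of Gm10273 at 86.0 to 94.8% in the 4 libraries. CpGs with the pattern of a sequence difference between the strains, at most 10% in both libraries of one genotype and at least 90% in both of the other, numbered 0 in the 3 windows, their flanks and the genes. The share of all scored autosomal CpGs with this pattern was not taken, so the count says nothing particular about the 3 genes. A difference carried by both genotypes would not show it.

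CpGs at 0% in all 4 libraries were frequent in Rims2 away from its start sites. They were 11 of the 71 scored CpGs of its flanks over 1 kb from a start site (15.5%) and 132 of 1902 in its gene body (6.94%), beside 2.25% of all scored autosomal CpGs. There were 3 of 1965 in the gene body of Btbd3 and 2 of 422 in that of Adam2, and 0 in the 3 windows. A CpG of the reference that the embryos lack would read as 0% in every library, and the part of such differences was not tested. Without these CpGs the Rims2 gene body was at 82.8 to 83.96% in the 4 libraries, and KO minus WT there was 1.13 and 0.378 points. In the Rims2 flanks of 10 kb the difference without them was 2.85 and 1.03 points left and 3.41 and 3.16 points right of the window, which moves all 4 values given for all CpGs further on by over 1.5 times.

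**Figure D3:**
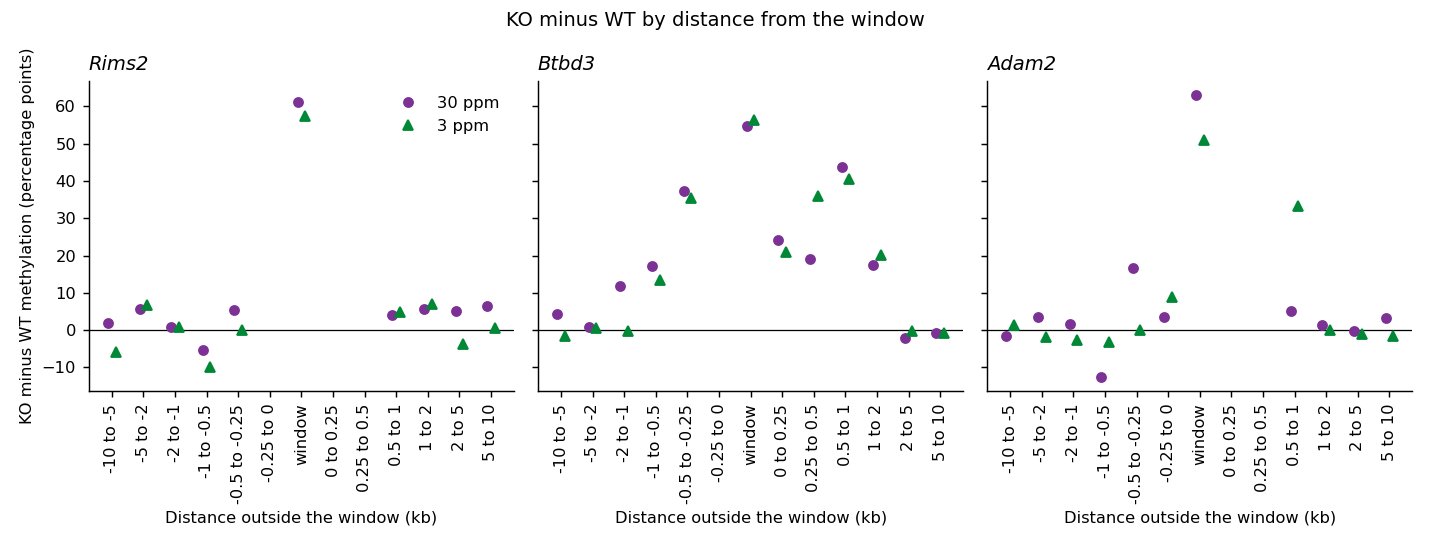
KO minus WT methylation (percentage points, y axis) by distance outside the window (kb, x axis, left and right of the window on the forward strand) at 30 ppm and 3 ppm, from summed reads. Places without a point held no scored CpG. Outside the window, Btbd3 holds values of 13.4 to 43.7 points up to 1 kb on both sides, and the 1-CpG bin of Adam2 at 3 ppm is at 33.2 points.

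Over the full 10 kb on each side, 55 of 215 scored CpGs at Btbd3 (25.6%), 16 of 83 at Rims2 (19.3%) and 31 of 200 at Adam2 (15.5%) were higher in both KO libraries than in both WT libraries, beside 16.9% of all scored autosomal CpGs. The Adam2 flanks thus lay near that share, and so did the Rims2 flanks with all CpGs counted. At Rims2 the count includes 9 CpGs left and 7 right at 0% in all 4 libraries. Such CpGs cannot have that order, so the Rims2 share is higher without them. KO minus WT summed over a flank of 10 kb was 1.64 and 2.69 points left and 6.07 and 0.524 points right of Rims2. It was 6.00 and 0.932 points left and 4.97 and 5.64 points right of Btbd3. At Adam2 it was -0.905 and 0.211 points left and 2.10 and -0.972 points right.

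Among the 1427 shared regions, the median reach outside the window was 334 bp at 30 ppm, 311 bp at 3 ppm and 137 bp at both diets. At both diets it was 0 bp at 29.4% of them, as at Rims2 and Adam2, and 97.5% had a shorter reach than Btbd3. The place of Btbd3 holds for the main settings. It was not taken for those that gave Btbd3 a reach of 351 or 591 bp. These shares place the 3 loci in one set of libraries and are no test.

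**Figure D4:**
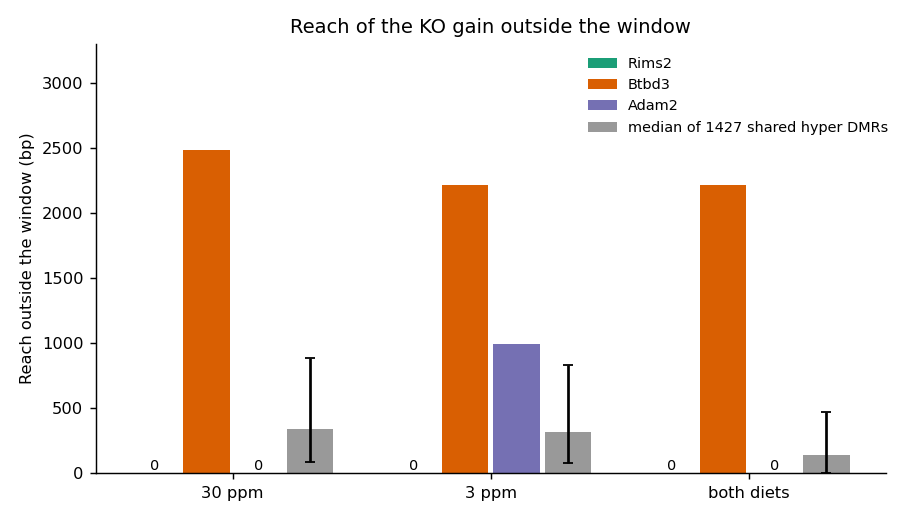
Reach of the KO gain outside the window (bp, both sides added, y axis) at 30 ppm, at 3 ppm and at both diets. Bars are the 3 loci, with 0 written where there was none, and grey bars the median of the 1427 shared regions with the quartiles as error bars. Btbd3 reached 2482, 2217 and 2217 bp, and the median regions 334, 311 and 137 bp.

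The 3 genes had 10 groups of start sites, counted as 1 where starts lay within 500 bp, and the CpGs within 1 kb of each were summed. The Btbd3 site at 138278493 was at 79.2% in KO against 44.8% in WT under excess FA and at 79.9% and 37.4% under control FA. Without the window CpGs the difference there was 26.1 and 33.6 points. It was the only group of the 10 with at least 10 points at both diets outside a window. The call at 3 ppm, which also entered the choice, runs to 138279351. Of the 37 scored CpGs of this site, 29 lie in the union of the calls of both diets. The difference outside the window is therefore a description too. The outermost Btbd3 site, at 138256565, was low in all 4 libraries, at 7.77 to 11.54%, and KO minus WT was -3.77 and -0.612 points. Only 15 of its 105 reference CpGs were scored.

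The Rims2 site at 39659566 differed by 29.6 and 31.9 points with the window CpGs and by -7.41 and 9.59 points without them. At the Rims2 sites numbered 2 to 6 in transcript order the differences ran from -2.03 to 6.30 points, and all libraries were at 75.2 to 95.6%. The outermost Rims2 site had 246 reference CpGs and 1 that was scored, so its methylation is not described. The Adam2 site was at 76.0 to 83.2% in all libraries, with 5.77 and 5.35 points between KO and WT. The stretch chr15:39199001-39200000, which begins within 1 kb downstream of the outermost Rims2 site, had 11 scored CpGs. They were at 13.5% (KO) and 11.1% (WT) under excess FA and at 18.2% and 7.33% under control FA. Neither the outermost Btbd3 site nor the Adam2 site thus showed a gain of the size seen in the windows.

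**Figure D5:**
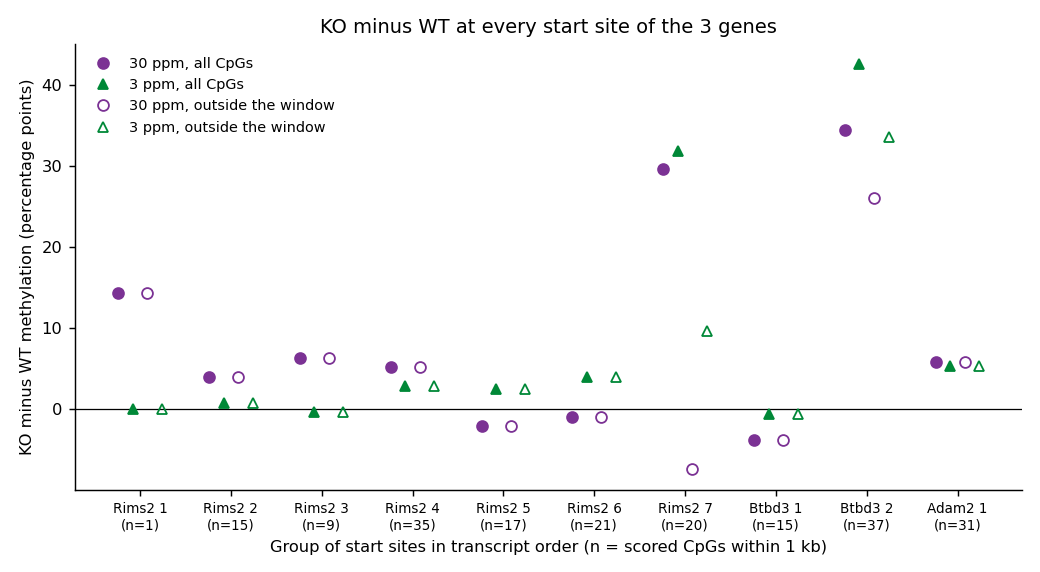
KO minus WT methylation (percentage points, y axis) within 1 kb of each of the 10 groups of start sites of Rims2, Btbd3 and Adam2 (x axis), at 30 and 3 ppm, with filled symbols for all CpGs and open ones for CpGs outside the window. The second Btbd3 site is at 26.1 and 33.6 points without the window, where part of the CpGs lies in the call at 3 ppm.

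Stretches of 1 kb with at least 3 scored CpGs were tested over the genome by Fisher's exact test on the reads of 2 libraries, with Benjamini-Hochberg adjustment, and called where the adjusted p was under 0.05 and the libraries differed by 10 points or more. Such a test compares those libraries and not the genotypes. Of 1863069 stretches, 1.13% were called higher in KO at 30 ppm, 1.10% at 3 ppm and 0.367% at both. The windows used this contrast, so the following counts are descriptions. Within 10 kb of the window, 1 of 16 stretches at Rims2, 3 of 20 at Btbd3 and 2 of 22 at Adam2 were called at both diets, and they were the stretches of the windows and, at Btbd3, the next 2 to the right, up to 138281000. With reads divided by the number of CpGs, 0 stretches of the genome were called higher in KO at either diet. That leaves far fewer reads for each stretch, so it does not tell how much repeated counting of reads adds to the calls.

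In the rest of the genes, 1 of 299 stretches of Rims2, 0 of 258 of Btbd3 and 0 of 25 of Adam2 were called higher in KO at both diets. The Rims2 stretch, chr15:39615001-39616000, was intronic and 44076 bp left of the window. Its 11 CpGs were at 74.6% (KO) and 55.7% (WT) under excess FA and at 75.7% and 54.9% under control FA. The stretch after it, which holds the exon 39616269 to 39616510, was at 45.9% and 33.9% at 30 ppm and at 57.7% and 38.6% at 3 ppm, and was called at 3 ppm alone. Both lie outside every reach given above. A count of 1 in 299 is near the 0.367% of all stretches called at both diets, so it says nothing particular about Rims2. At 3 ppm, 1 other stretch of Rims2, the one next to its outermost start site, and 1 of Btbd3 were called higher and 2 of Btbd3 lower in KO, beside 0.114% of all stretches called lower at that diet. At 30 ppm none of the 640 stretches of the 3 genes and their flanks was called lower, beside 0.0487% of all.

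Diet was compared within each genotype. Each such comparison sets 1 embryo against 1 other, so diet cannot be told apart from embryo or litter. The choice of the windows used the same levels and required a large KO gain at both diets, which limits how far the diets can differ there, so the values at the 3 regions are not independent of the choice. For this the 3 regions were taken as the union of the calls of both diets, which at Btbd3 extends to 138279351 and spans 900 bp, and tested by Fisher's exact test over 1703 shared regions. In KO, 3.23% of these were called for diet, in WT 2.99%, and 2.64% had a KO minus WT that differed between diets by a Wald test of the log odds ratios. None of the 3 regions was called, which is given as a description. At an unadjusted p under 0.05 there were 0 in KO, 2 in WT and 2 in the Wald test, beside 15.6%, 15.3% and 14.0% of all shared regions.

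In KO, the level at 30 ppm minus that at 3 ppm was 6.99 points at Rims2 (95% interval -4.50 to 17.6), -2.18 at Btbd3 (-7.09 to 2.42) and 2.07 at Adam2 (-4.55 to 8.43). In WT it was 3.40 points at Rims2 (-6.08 to 11.95), 10.2 at Btbd3 (3.58 to 16.7) and -10.0 at Adam2 (-18.9 to -1.33). The WT values of Btbd3 and Adam2 had opposite directions, with Btbd3 higher and Adam2 lower in the WT embryo at excess FA. The intervals cover counting error and not variation between embryos. With a minimum of 10 reads they were 1.11 and -2.86 points.

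The log odds ratio of KO against WT at 30 ppm minus that at 3 ppm was 0.05 (SE 0.50) at Rims2, -0.59 (SE 0.23) at Btbd3 and 0.66 (SE 0.33) at Adam2. Since both gains entered the choice, these are given as descriptions, and that no region was called does not show that the gain was equal at both diets. In the 1 kb stretches, 0 of the 640 of the 3 genes and their flanks were called for diet in KO, in WT or in the Wald test, beside 0.0683%, 0.0470% and 0.0692% of all stretches. The smallest adjusted p was 0.0874, in KO in the stretch right of the Btbd3 window, at 81.6% at 30 ppm and 90.9% at 3 ppm. At an unadjusted p under 0.05 there were 43 stretches in KO, 35 in WT and 38 in the Wald test, and 7.13%, 6.54% and 7.73% of all stretches passed that limit, so these counts were no more than the background.

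Related genes, none of them among the 3 chosen, were described at their promoters, 1 kb on each side of the 5′ end of the gene. They were scored on the same libraries, and the lists were written with earlier results of these data known. Their counts and medians are therefore descriptions and no test of the lists. Of 48389 promoters, 9.08% were called higher in KO at 30 ppm, 9.17% at 3 ppm and 4.37% at both. Of 20 presynaptic active zone genes, to which the Rims2 protein belongs by function, 19 were tested, since Cask is X-linked. Higher in KO were 5 at 30 ppm, 4 at 3 ppm and 4 at both. Lower in KO were 0 at either diet, beside 0.219% of all promoters at 30 ppm and 0.364% at 3 ppm, so a list of this size says nothing about lower calls. The median KO minus WT of the list was 6.37 and 5.59 points, beside 2.41 and 1.32 over all promoters.

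The 4 active zone promoters called at both diets belonged to Rims1, the closest relative of Rims2, to Tspoap1, a RIM-binding protein, to Erc2, an active zone scaffold, and to Ppfia2, a liprin-alpha. Rims1 was at 51.5% in KO against 24.5% in WT under excess FA and at 41.5% and 21.1% under control FA (Fisher's exact adjusted p = 0.00191 and 0.00800). Tspoap1 rose by 21.1 and 25.02 points, Erc2 by 15.9 and 23.3 points and Ppfia2 by 17.6 and 12.3 points. Ppfia2 stayed low in absolute terms, at 26.6% in both KO libraries.

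Of the 12 other BTBD genes, which share the BTB/POZ domain of Btbd3, 0 promoters were called at 30 ppm, 1 at 3 ppm and 0 at both, with medians of 5.17 and 3.11 points. The largest mean difference was at Btbd2, at 77.6% (KO) and 58.6% (WT) under excess FA and at 68.3% and 54.4% under control FA, which missed the threshold (Fisher's exact adjusted p = 0.160 and 0.186) with 6 CpGs scored. Of the 30 other ADAM genes, which encode membrane proteins with a disintegrin and a metalloprotease domain, 4 were called higher at 30 ppm, 4 at 3 ppm and 2 at both, with medians of 2.46 and 4.19 points. Of all promoters, 9.08%, 9.17% and 4.37% were called. The counts of the ADAM and BTBD lists are near these shares and say nothing particular about the lists. The pair called at both was Adam10, the sheddase of Notch and other surface proteins, at 34.1% against 11.4% and 33.0% against 13.9%, and Adam5, a relative of Adam2, at 49.5% against 25.1% and 44.1% against 33.4%. Of the BTBD and ADAM lists, 0 promoters were called lower in KO, which at the shares of all promoters given above says nothing about these lists.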

How the data were processed

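CpG methylation was read in 4 WGBS libraries, 1 for each combination of Tet1 genotype and diet. Per the study's methods and processing notes, the authors trimmed reads with Trim Galore 0.6.10, aligned them with Bismark 0.23.1 to GRCm38.p6, removed duplicates, merged the strands of each CpG and called DMRs with DSS between single libraries (at least 10%, 3 CpGs and 100 bp). Each deposited table lists CpGs with a methylated fraction and a count of covering reads, which the authors did not normalise. Their product was rounded to whole methylated reads. Values here are percentages of summed reads over autosomal CpGs covered by at least 5 reads in every library.

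Regions, stretches of 1 kb with 3 CpGs and promoters were compared by Fisher's exact test (two-sided, Benjamini-Hochberg over all features of a kind). Diets within a genotype were compared by the same test. The difference between diets in the log odds ratio of KO against WT was tested by a Wald test with 0.5 added to each count. Wilson intervals have 95% confidence. Windows are the calls at 30 ppm, as the choice of genes names them; the plan had named their union with the 3 ppm calls, which is given as an alternative. Genes came from GENCODE vM21, sequences from RefSeq GRCm38.p6 (its promoter table held 1 of the 3 genes), and copies from BLAST 2.17.0. Python 3.11.15, SciPy 1.17.1 and NumPy 2.4.6 were used, and the tests were checked on simulated data. Genes, lists and tests were chosen with earlier results of these data known. Promoters named were up to 4 of a list called higher at both diets, or else the most changed one. Alternatives were other read minimums, thinning to the mean coverage of the shallowest library, other region limits, settings of the walk and reads divided by the number of CpGs. The lambda spike-in was not used here.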

Additional observations from a re-analysis of the deposited data

How the results depend on the processing

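KO minus WT in the windows kept its direction under all alternatives tried, between 59.1 and 63.0 points for Rims2 at 30 ppm and 53.9 and 62.7 at 3 ppm, 37.9 and 58.4 and 50.3 and 56.3 for Btbd3, and 51.9 and 65.0 and 49.7 and 52.4 for Adam2. The largest moves were Btbd3 at 30 ppm over the union of both calls, the window named in the plan, 37.9 points, and Adam2 at 30 ppm with a minimum of 10 reads, 51.9 points. The reach at both diets moved to 135 bp at Rims2 without a minimum of reads, and to 351 bp at Btbd3 with a threshold of 20 points and 591 bp with a mean of 3 CpGs, both set by the 30 ppm libraries. It stayed at 0 bp at Adam2. Over the whole gene body, windows included, KO minus WT was 1.53 and 0.795 points at Rims2, 1.99 and 0.756 points at Btbd3 and 3.62 and 1.07 points at Adam2 (30 and 3 ppm).

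Counts over the genome depended on the reads. With a minimum of 10 reads, stretches called higher in KO fell from 21080 to 10002 at 30 ppm and from 20416 to 8246 at 3 ppm, diet stretches from 1273 to 669 in KO and from 875 to 488 in WT, and those that differed between diets from 1289 to 696. Promoters fell from 4394 and 4438 to 2859 at each diet, and shared regions from 55 to 24 in KO, from 51 to 32 in WT and from 45 to 9 between diets, with 846 regions left. With the libraries thinned to the same mean coverage there were 10705 stretches at 3 ppm, 573, 420 and 608 for diet in KO, in WT and between diets, and 31 and 22 shared regions in KO and between diets. With reads divided by the number of CpGs, each count of stretches and of shared regions called was 0. These tests have far fewer reads for each stretch or region. The counts of 0 thus do not tell whether the calls rest on counting a read for every CpG on it. Promoters were not tested this way. Of the diet values of the 3 regions, none was called under any alternative, and the uncalled values of Adam2 in KO with a minimum of 10 reads (-0.66 points) and of Rims2 between diets after thinning (-0.02 log odds) changed sign.

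With 1 library in each group, variation between embryos does not enter any test and no library can be left out. Unscored CpGs limit what is known left of the Rims2 window and right of the Adam2 window. No paired analysis was possible because the labels pair no samples, as the 4 libraries come from embryos with different numbers and share only replicate number 1. A fit of genotype with diet as a block, which would leave 1 residual degree of freedom, was not run, since KO against WT in the windows is given without a test.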
